A study of Drosophila melanogaster with 20 samples.

Results

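The genes described here encode the subunits of the proteasome and were followed in RNA of whole Drosophila embryos. They were chosen by name: protein-coding genes whose FlyBase symbol begins with Prosalpha, Prosbeta, Rpn and a digit, or Rpt and a digit. Of 48 such genes, 36 reached a mean of at least 10 estimated counts per library and are the members, among 11154 genes tested and 17714 in the files. The other 12 are duplicates whose symbols carry a T or an R (such as Prosalpha4T1, Prosbeta5R1 and Rpt4R). None of them exceeded 10 counts in any library, and Prosbeta5R1 had 0 counts in all 20.

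The proteasome is the large protease that degrades proteins tagged with ubiquitin. Its barrel, the core particle, is built of rings of alpha subunits, which gate the entrance, and rings of beta subunits, some of which cut proteins. The regulatory particle caps the barrel. Its base holds the Rpt ATPases, which unfold substrates, and Rpn subunits that bind ubiquitin, and its lid holds further Rpn subunits, among them the deubiquitinase Rpn11. Fly eggs are supplied with maternal proteasome mRNA, so part of what young embryos hold was made by the mother. The members were 7 alpha ring genes, 7 beta ring genes, 6 base ATPases, 4 other base genes, 8 lid genes and 4 paralog copies (Prosalpha1R, Prosbeta2R2, Rpt3R and Rpt6R). Duplicates of this kind are known in flies mainly from the male germline.

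The study asked how the secreted ligand Wnt-4 acts with Otk-1 and Otk-2, transmembrane proteins that resemble receptor kinases. There were 10 groups of 2 libraries: WT, 3 groups with overexpressed transgenes (UAS-wnt-4; UAS-otk-1; UAS-otk-1 UAS-wnt-4), 3 with a single RNAi transgene against wnt-4, otk-1 or otk-2, and 3 with a pair of these (wnt-4 RNAi otk-1 RNAi; wnt-4 RNAi otk-2 RNAi; otk-1 RNAi otk-2 RNAi). The study's methods name maternal and daughterless GAL4 drivers, which act in the germline of the mother and throughout the embryo. The labels give the WT embryos as control only, without saying whether they carried the drivers. Eggs were laid over 24 h at 25 °C, so every library mixes stages from egg to late embryo. Separate crosses are not stated for the libraries of a group, and p-values then measure only the spread between these libraries. In whole embryos, fewer cells of a type and less RNA per cell cannot be told apart.

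Levels are counts scaled to the library total and by TMM factors (CPM). A gene is called when its adjusted p (edgeR's quasi-likelihood test, Benjamini-Hochberg over all genes tested) is under 0.1. Libraries held 33641557 to 41753919 counts. Of the targeted genes, Wnt4 was raised by 4.56 ± 0.18 on the log2 scale in UAS-wnt-4, and otk, the gene of Otk-1, by 3.47 ± 0.20 in UAS-otk-1. With otk-1 RNAi alone otk read 56.0 and 46.0 CPM against 198 and 178 in WT, and with otk-2 RNAi alone otk2 read 28.4 and 23.6 against 67.5 and 61.6. Wnt4 was called higher, not lower, under the label wnt-4 RNAi (159 and 143 CPM against 126 and 107 in WT, log2 fold change 0.38 ± 0.15, adjusted p = 0.0544 in edgeR). Nor was it called lower when wnt-4 RNAi otk-1 RNAi was set against otk-1 RNAi (-0.11 ± 0.15, adjusted p = 0.661). Against WT it was called lower for wnt-4 RNAi otk-1 RNAi (-0.49 ± 0.15, adjusted p = 0.0153) and for wnt-4 RNAi otk-2 RNAi (-0.56 ± 0.15, adjusted p = 0.0102), but also for otk-1 RNAi otk-2 RNAi, which carries no transgene against wnt-4 (-0.69 ± 0.15, adjusted p = 0.00586). Set against otk-2 RNAi, the wnt-4 RNAi otk-2 RNAi libraries gave 0.10 ± 0.15 (adjusted p = 0.712). Groups with wnt-4 RNAi in their name are therefore named by label.

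The core particle genes were higher than in WT in the 5 groups with a wnt-4 or an otk-1 RNAi label. All 14 were called higher in 4 of these groups, and 13 for otk-1 RNAi otk-2 RNAi, where Prosalpha1 missed the threshold. Of the 18 regulatory particle genes, 10 were called higher with otk-1 RNAi and 11 with otk-1 RNAi otk-2 RNAi, 3 where the label was wnt-4 RNAi, 3 for wnt-4 RNAi otk-1 RNAi and 4 for wnt-4 RNAi otk-2 RNAi. These counts alone do not show that the groups differ, and they depend on the fit. With only the groups compared in the fit they were 3 for otk-1 RNAi and 1 for otk-1 RNAi otk-2 RNAi. Setting the label wnt-4 RNAi directly against otk-1 RNAi called no member in the fit of all libraries (6 had an unadjusted p under 0.05 in edgeR, and DESeq2 called 1). With only the groups compared in the fit, 14 members were called there. For these restricted fits the share of all genes called is not given, so their counts are no result about the members. The share of all tested genes called higher was 29.7% for the label wnt-4 RNAi, 21.0% for otk-1 RNAi, 30.9% for wnt-4 RNAi otk-1 RNAi, 27.7% for wnt-4 RNAi otk-2 RNAi and 22.5% for otk-1 RNAi otk-2 RNAi. No member was called lower than WT.

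**Figure D1:**
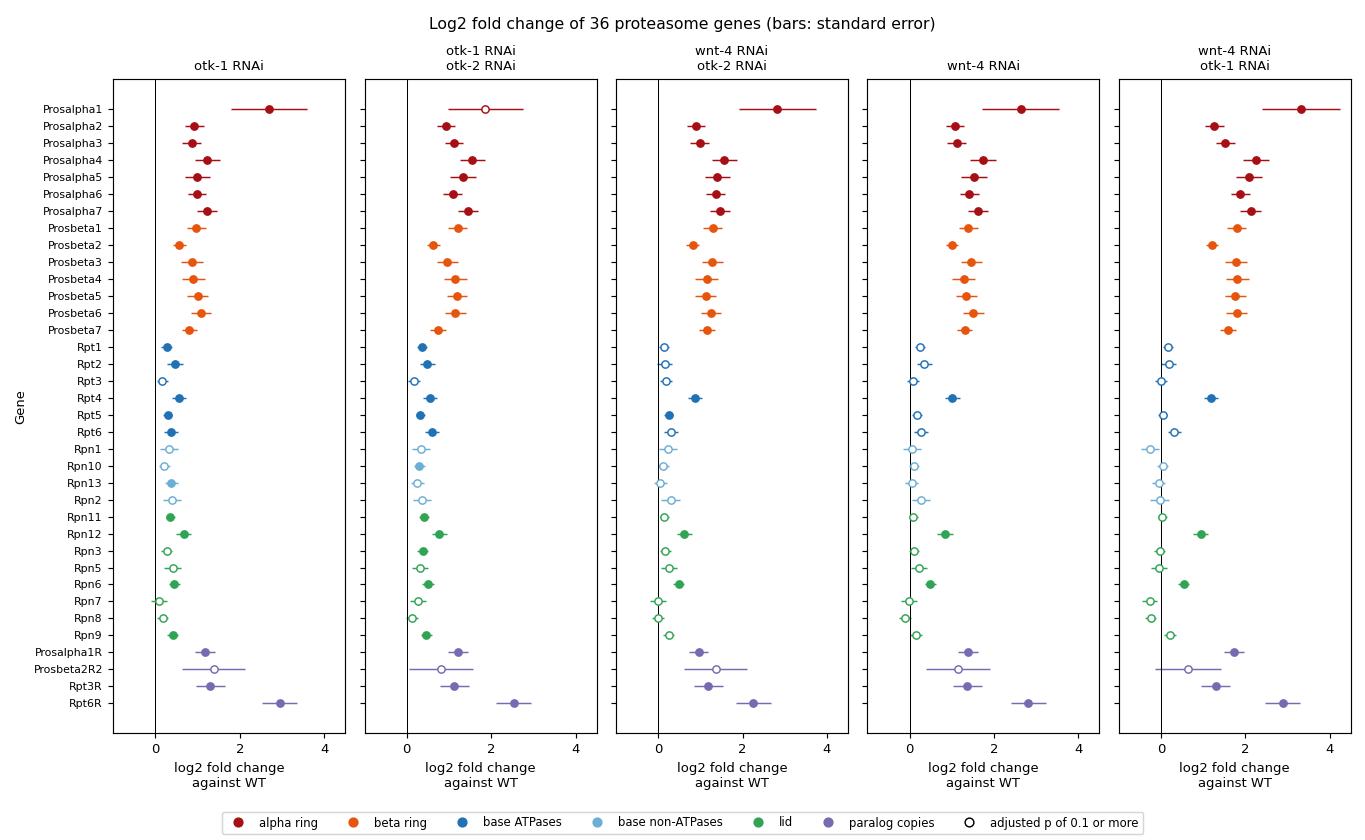
Log2 fold change against WT (x axis) of each of the 36 members (y axis) in the 5 groups that carry a wnt-4 or an otk-1 RNAi label, with standard errors from edgeR as bars. Filled points have an adjusted p under 0.1. Core genes (alpha and beta rings) lie above 0 in every panel, and of the regulatory genes Rpt4, Rpn12 and Rpn6 are filled in all 5.

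Over the core genes the median log2 fold change against WT was 1.80 for wnt-4 RNAi otk-1 RNAi, 1.40 for the label wnt-4 RNAi, 1.27 for wnt-4 RNAi otk-2 RNAi, 1.15 for otk-1 RNAi otk-2 RNAi and 0.98 for otk-1 RNAi. The regulatory median was 0.04, 0.16, 0.20, 0.36 and 0.37 in that order of groups. The median of all genes tested lay between -0.08 and 0.02. These values move with the scaling between libraries. For wnt-4 RNAi otk-1 RNAi against WT the median of all genes was -0.35 in CPM without TMM and -0.51 in TPM (which also divides by length). The regulatory median turned to -0.23 and -0.41 on those scales, while all 14 core genes stayed above WT. Relative to the median of all genes on its own scale, the core median was 1.83 to 1.88 and the regulatory median 0.11 to 0.12.

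In the alpha ring, Prosalpha7 (FBgn0023175) had the smallest p across the 10 groups (adjusted p = 9.15e-05, edgeR). It read 106 and 146 (WT), 122 and 172 (UAS-wnt-4), 202 and 175 (UAS-otk-1), 154 and 208 (UAS-otk-1 UAS-wnt-4) and 165 and 222 (otk-2 RNAi) CPM. In the other 5 groups it read 434 and 347 (wnt-4 RNAi by label), 280.3 and 312 (otk-1 RNAi), 494 and 606 (wnt-4 RNAi otk-1 RNAi), 389.5 and 309 (wnt-4 RNAi otk-2 RNAi) and 293 and 393 (otk-1 RNAi otk-2 RNAi). Every one of these latter libraries was above every one of the former. Its log2 fold change against WT was 2.12 ± 0.24 for wnt-4 RNAi otk-1 RNAi (adjusted p = 2.51e-05, edgeR) and 1.23 ± 0.24 for otk-1 RNAi (adjusted p = 0.0044). Prosalpha4 (FBgn0004066, chromosome X, 16276270 to 16277587, plus strand, dm6) and Prosalpha5 rose by a like amount for wnt-4 RNAi otk-1 RNAi, 2.25 ± 0.30 and 2.08 ± 0.31. Prosalpha2 rose least of the ring there, by 1.27 ± 0.22.

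Prosalpha1 had the largest p of the alpha ring (adjusted p = 0.151, edgeR), and its values are uncertain. Reads were divided between it and its near copy Prosalpha1R: the estimated counts of both genes were not whole in any of the 20 libraries, and Prosalpha1R was given a mean of 4613 counts and Prosalpha1 a mean of 304. Prosalpha1 read 2.36 and 1.20 (WT), 4.88 and 13.9 (UAS-wnt-4), 6.23 and 3.39 (UAS-otk-1), 2.35 and 20.5 (UAS-otk-1 UAS-wnt-4) and 4.88 and 6.39 (otk-2 RNAi) CPM. In the remaining groups it read 16.9 and 5.26 (wnt-4 RNAi by label), 14.5 and 8.55 (otk-1 RNAi), 18.7 and 16.9 (wnt-4 RNAi otk-1 RNAi), 9.25 and 16.1 (wnt-4 RNAi otk-2 RNAi) and 2.69 and 10.2 (otk-1 RNAi otk-2 RNAi). Libraries of 1 group differed up to several fold and most groups overlapped. With the counts of both genes summed, an alternative added after the values were seen, the log2 fold change against WT was 1.43 ± 0.24 for the label wnt-4 RNAi, 1.24 ± 0.24 for otk-1 RNAi, 1.80 ± 0.25 for wnt-4 RNAi otk-1 RNAi, 1.05 ± 0.24 for wnt-4 RNAi otk-2 RNAi and 1.23 ± 0.24 for otk-1 RNAi otk-2 RNAi. The sum passed the threshold in all 5.

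In the beta ring, Prosbeta7 (FBgn0250746, chromosome 3R, 5357012 to 5358364, minus strand, dm6) had the smallest p of all members across the groups (adjusted p = 7.71e-05, edgeR). It read 102 and 159 (WT), 118 and 161 (UAS-wnt-4), 183 and 182 (UAS-otk-1), 142 and 158 (UAS-otk-1 UAS-wnt-4) and 148 and 172 (otk-2 RNAi) CPM. With the RNAi labels it read 338 and 309 (wnt-4 RNAi by label), 221 and 236 (otk-1 RNAi), 362 and 429 (wnt-4 RNAi otk-1 RNAi), 298 and 286 (wnt-4 RNAi otk-2 RNAi) and 215 and 221 (otk-1 RNAi otk-2 RNAi). Again these 5 groups did not overlap with the rest. Prosbeta4 had the largest p of the ring (adjusted p = 0.00264, edgeR). Its libraries gave 67.3 and 85.2 (WT), 86.7 and 104 (UAS-wnt-4), 133 and 109 (UAS-otk-1), 99.6 and 148 (UAS-otk-1 UAS-wnt-4) and 100.3 and 151 (otk-2 RNAi) CPM. The other 5 groups gave 217 and 156 (wnt-4 RNAi by label), 145 and 139.9 (otk-1 RNAi), 217 and 319 (wnt-4 RNAi otk-1 RNAi), 189 and 151 (wnt-4 RNAi otk-2 RNAi) and 138 and 201 (otk-1 RNAi otk-2 RNAi). The highest Prosbeta4 library of otk-2 RNAi was above both libraries of otk-1 RNAi.

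The catalytic subunits moved with the ring. For wnt-4 RNAi otk-1 RNAi against WT, Prosbeta1, the caspase-like site, rose by 1.80 ± 0.23 on the log2 scale, Prosbeta5, the chymotrypsin-like site, by 1.76 ± 0.25 and Prosbeta2, the trypsin-like site, by 1.21 ± 0.15. Prosbeta2 rose least of the beta ring in each of the 5 groups, by 0.57 ± 0.15 for otk-1 RNAi. Its libraries read 89.3 and 122 CPM in WT, 161 and 151 with otk-1 RNAi and 241 and 247 with wnt-4 RNAi otk-1 RNAi, and these 3 groups did not overlap.

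In 7 of 14 core genes (Prosalpha6, Prosalpha7, Prosbeta1, Prosbeta2, Prosbeta3, Prosbeta6 and Prosbeta7), 1 of 18 regulatory genes (Rpt4) and 2 of 4 copies (Rpt3R and Rpt6R), every library of the 5 groups was above every other library. This held for 6.59% of all genes tested. The split of the groups behind the count was chosen after the values were seen.

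**Figure D2:**
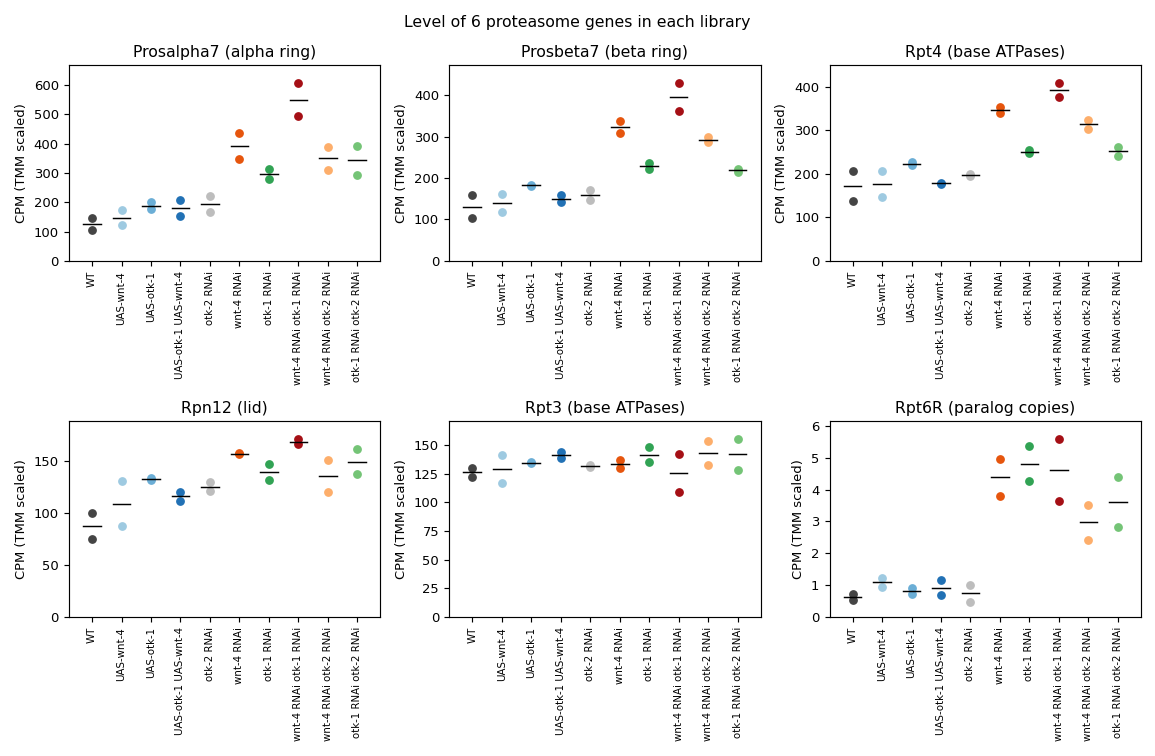
Level in CPM (y axis, from 0) of 6 members in each of the 20 libraries, by group (x axis). Points are libraries and lines the mean of the pair. Prosalpha7, Prosbeta7, Rpt4 and Rpt6R separate the 5 groups that carry a wnt-4 or an otk-1 RNAi label from the rest, while Rpt3 stays between 109 and 155 CPM.

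Among the base ATPases, Rpt4 (FBgn0028685, chromosome X, 6289470 to 6291245, minus strand, dm6) had the smallest p (adjusted p = 0.000254, edgeR). It read 136 and 206 (WT), 147 and 206 (UAS-wnt-4), 219.7 and 226 (UAS-otk-1), 176 and 179 (UAS-otk-1 UAS-wnt-4) and 195 and 199 (otk-2 RNAi) CPM. Under the RNAi labels it read 340.2 and 352 (wnt-4 RNAi by label), 248 and 254 (otk-1 RNAi), 375 and 408 (wnt-4 RNAi otk-1 RNAi), 324 and 303 (wnt-4 RNAi otk-2 RNAi) and 262 and 241 (otk-1 RNAi otk-2 RNAi). These ranges did not overlap, and the log2 fold change against WT was 1.19 ± 0.17 (adjusted p = 8.69e-05, edgeR) for wnt-4 RNAi otk-1 RNAi and 0.55 ± 0.17 (adjusted p = 0.0259) for otk-1 RNAi. Rpt3 (FBgn0028686), a neighbour of Rpt4 in the ATPase ring, had the largest p of all members (adjusted p = 0.837). It read 122 and 130.3 (WT), 117 and 142 (UAS-wnt-4), 135 and 135 (UAS-otk-1), 144 and 139 (UAS-otk-1 UAS-wnt-4) and 131 and 133 (otk-2 RNAi) CPM. In the other groups it read 138 and 130.1 (wnt-4 RNAi by label), 135 and 148 (otk-1 RNAi), 142 and 109 (wnt-4 RNAi otk-1 RNAi), 153 and 133 (wnt-4 RNAi otk-2 RNAi) and 129 and 155 (otk-1 RNAi otk-2 RNAi). These libraries lay mostly within the range of the former. Rpt1, Rpt2, Rpt5 and Rpt6 were called higher with otk-1 RNAi, alone or beside otk-2 RNAi, by 0.27 to 0.60 on the log2 scale, and Rpt5 also with wnt-4 RNAi otk-2 RNAi (0.25 ± 0.11).

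Of the other base genes, Rpn13, a ubiquitin receptor, was called only with otk-1 RNAi (0.38 ± 0.15) and Rpn10, another receptor, only with otk-1 RNAi otk-2 RNAi (0.29 ± 0.13). Rpn1 and Rpn2, the large scaffold subunits, were called in no group against WT. Rpn10 had the largest p of the 4 across the groups (adjusted p = 0.571, edgeR) and read 100.1 and 112 (WT), 108 and 125 (UAS-wnt-4), 123 and 126 (UAS-otk-1), 125 and 116 (UAS-otk-1 UAS-wnt-4) and 123 and 116 (otk-2 RNAi) CPM. Elsewhere it read 112 and 117 (wnt-4 RNAi by label), 120.0 and 126 (otk-1 RNAi), 123 and 96.0 (wnt-4 RNAi otk-1 RNAi), 119.9 and 111 (wnt-4 RNAi otk-2 RNAi) and 120.5 and 140.3 (otk-1 RNAi otk-2 RNAi). Its lowest library, like the lowest of Rpn13, belonged to wnt-4 RNAi otk-1 RNAi, and its highest to otk-1 RNAi otk-2 RNAi.

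In the lid, Rpn12 and Rpn6 rose in all 5 groups. Rpn12 (FBgn0028693, chromosome 3L, 16583028 to 16584022, plus strand, dm6), in yeast the last subunit to join the lid, had the smallest p of the lid (adjusted p = 0.0147, edgeR). It read 75.0 and 100.0 (WT), 86.8 and 131 (UAS-wnt-4), 131 and 133 (UAS-otk-1), 112 and 120.0 (UAS-otk-1 UAS-wnt-4) and 121 and 129 (otk-2 RNAi) CPM. With the RNAi labels it read 157 and 156 (wnt-4 RNAi by label), 131 and 147 (otk-1 RNAi), 166 and 170.5 (wnt-4 RNAi otk-1 RNAi), 150.2 and 119 (wnt-4 RNAi otk-2 RNAi) and 137 and 161 (otk-1 RNAi otk-2 RNAi). All 10 of these libraries were above both WT libraries, and 1 of them (119 CPM) was below both UAS-otk-1 libraries. Its log2 fold changes ran from 0.62 ± 0.18 to 0.94 ± 0.18, and those of Rpn6 from 0.45 ± 0.13 to 0.54 ± 0.13. Rpn9 and Rpn11 were called with otk-1 RNAi and with otk-1 RNAi otk-2 RNAi, and Rpn3 with the latter only. Rpn5, Rpn7 and Rpn8 were called in no group against WT.

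The particles can also be compared inside each library, where scaling between libraries does not enter. The summed CPM of the 14 core genes and Prosalpha1R was 0.578 and 0.683 times that of the 18 regulatory genes in the WT libraries. The ratio was 0.655 and 0.731 for UAS-wnt-4, 0.831 and 0.756 for UAS-otk-1, 0.678 and 0.895 for UAS-otk-1 UAS-wnt-4 and 0.711 and 0.937 for otk-2 RNAi. It was 0.963 and 0.990 for otk-1 RNAi, 0.984 and 1.12 for otk-1 RNAi otk-2 RNAi, 1.23 and 1.17 for wnt-4 RNAi otk-2 RNAi, 1.495 and 1.20 for the label wnt-4 RNAi and 1.53 and 2.20 for wnt-4 RNAi otk-1 RNAi. All 10 libraries of the latter groups were above the other 10. The core sum ran from 1068 CPM (WT replicate 1) to 5084 CPM (wnt-4 RNAi otk-1 RNAi replicate 2), and the regulatory sum from 1847 to 2909 CPM. The ratios are a description and were not tested.

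**Figure D3:**
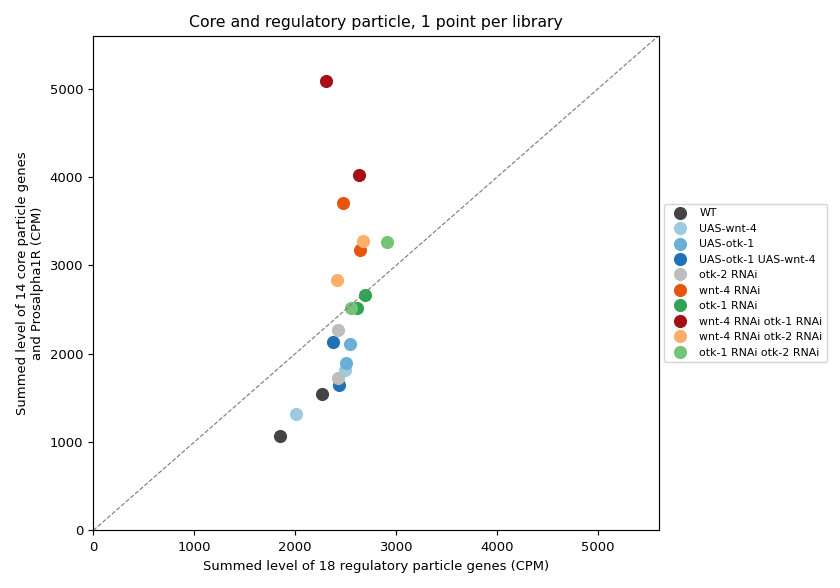
Summed CPM of the 14 core genes and Prosalpha1R (y axis) against summed CPM of the 18 regulatory genes (x axis), 1 point per library, coloured by group. The dashed line marks equal sums. The WT libraries lie below it at ratios of 0.578 and 0.683, and the wnt-4 RNAi otk-1 RNAi libraries lie highest at 1.53 and 2.20.

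Per length, in TPM, core genes were the more abundant. Averaged over the WT libraries, the core (with Prosalpha1R in place of Prosalpha1) ranged from 104 TPM (Prosalpha4) to 186 TPM (Prosalpha7) with a median of 129. The regulatory genes ranged from 51.4 TPM (Rpn2) to 161 TPM (Rpt6) with a median of 82.6. For wnt-4 RNAi otk-1 RNAi the core ran from 182 TPM (Prosalpha2) to 584 TPM (Prosalpha7) with a median of 332, and the regulatory genes from 32.4 TPM (Rpn1) to about 250 TPM (Rpt4) with a median of 65.8. The highest over the lowest gene went from 1.79 in WT to 3.2 in the core, and from 3.12 to 7.73 in the regulatory particle.

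Core genes are also shorter. Their effective transcript lengths were 536 to 927 bases (median 716), against 746 to 3099 (median 1211) for the regulatory genes and a median of 1586 for all genes tested. With the trend of fold change over length removed for wnt-4 RNAi otk-1 RNAi against WT, all 14 core genes were still called higher (median 1.51), and 3 regulatory genes were called higher and 2 lower. Rpt4 (1216 bases) and Rpt3 (1187 bases), the base ATPases of smallest and largest p, read 1.19 ± 0.17 and -0.01 ± 0.14 against WT there. Length and particle go together in these genes, and a part of length in the difference between the particles was not tested.

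**Figure D4:**
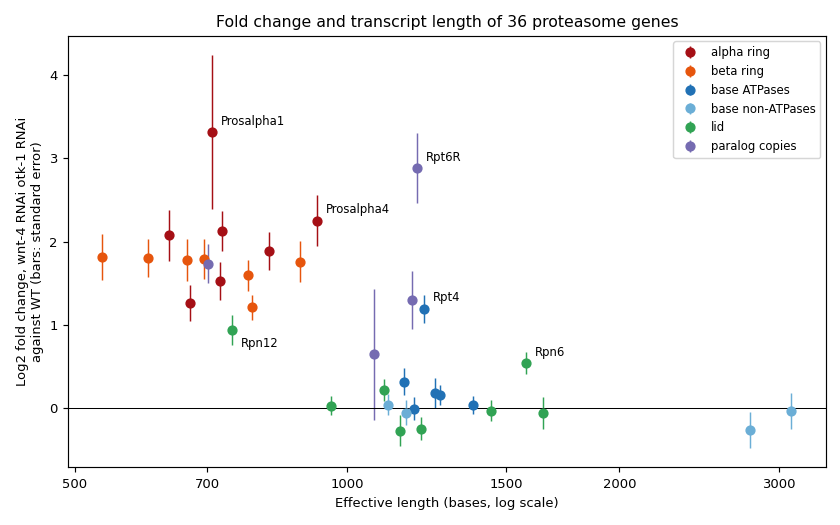
Log2 fold change of each member in wnt-4 RNAi otk-1 RNAi against WT (y axis, standard error as bars) against its effective length in bases (x axis, log scale), coloured by subcomplex. Rpt4 (1.19), Rpn12 (0.94) and Rpn6 (0.54) stand above the other regulatory genes, and Prosalpha1 (3.32) carries the widest error of the core.

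Among the copies, Rpt6R (FBgn0039788, chromosome 3R, 30582198 to 30583697, minus strand, dm6), a duplicate of the ATPase Rpt6, rose from a very low level. It read 0.527 and 0.715 (WT), 1.23 and 0.939 (UAS-wnt-4), 0.716 and 0.907 (UAS-otk-1), 0.674 and 1.16 (UAS-otk-1 UAS-wnt-4) and 0.473 and 1.00 (otk-2 RNAi) CPM. Under the RNAi labels it read 3.80 and 4.96 (wnt-4 RNAi by label), 5.36 and 4.26 (otk-1 RNAi), 3.63 and 5.58 (wnt-4 RNAi otk-1 RNAi), 2.42 and 3.51 (wnt-4 RNAi otk-2 RNAi) and 2.82 and 4.40 (otk-1 RNAi otk-2 RNAi). The lowest of these 10 libraries was above the highest of the others. In counts the WT libraries held 19 and 25 and the otk-1 RNAi libraries 169 and 144. Its log2 fold changes against WT ran from 2.25 ± 0.41 to 2.95 ± 0.42 (adjusted p = 0.00142 and 0.000744, edgeR). Rpt6R was also the one member called between otk-1 RNAi and UAS-otk-1 (2.56 ± 0.41, adjusted p = 0.00307), where 2.4% of all genes were called higher.

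Rpt3R, a duplicate of Rpt3, rose by 1.13 ± 0.35 to 1.37 ± 0.35 in the 5 groups, from 0.888 and 2.06 CPM in WT to between 2.84 and 4.07 CPM. Prosalpha1R rose by 0.96 ± 0.23 to 1.73 ± 0.23, with the doubt about divided reads given above. Prosbeta2R2, a duplicate of the catalytic Prosbeta2, was called nowhere (adjusted p = 0.168 across the groups). It read 0.278 and 0.286 (WT), 0.150 and 0.394 (UAS-wnt-4), 0.268 and 0 (UAS-otk-1), 0.176 and 0.620 (UAS-otk-1 UAS-wnt-4) and 0.207 and 0.243 (otk-2 RNAi) CPM. In the other groups it read 0.672 and 0.588 (wnt-4 RNAi by label), 0.984 and 0.503 (otk-1 RNAi), 0.514 and 0.370 (wnt-4 RNAi otk-1 RNAi), 0.633 and 0.829 (wnt-4 RNAi otk-2 RNAi) and 0.513 and 0.486 (otk-1 RNAi otk-2 RNAi). All 10 of these libraries were above both WT libraries in CPM, at a mean of 14.5 counts over all libraries. Replicate 2 of wnt-4 RNAi otk-1 RNAi held 10 counts, as did each WT library. In TPM it was below WT (0.24 against 0.27 and 0.29), so that order depends on the scaling. The list of testis markers gave no rise like that of Rpt3R and Rpt6R. Of its genes 3 of 15 passed the filter, and Mst84Da and Mst84Db had 0 counts throughout. The list summed to 13.3 to 14.6 CPM in WT and 8.97 to 15.6 CPM in the 5 groups. The list of adult female genes (yolk and eggshell) summed to at most 5.28 CPM in any library, with Cp19 at 0.

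The overexpression groups and otk-2 RNAi gave few calls. No member was called for UAS-wnt-4 (1 had an unadjusted p under 0.05 in edgeR, and DESeq2 called 0), where 0.61% of all genes were called in either direction. None was called for UAS-otk-1 (19 unadjusted, DESeq2 called 8; 2.84% of all genes) or for otk-2 RNAi (18 unadjusted, DESeq2 called 3; 1.78% of all genes). For UAS-otk-1 UAS-wnt-4 the lid gene Rpn9 was called (0.52 ± 0.13, adjusted p = 0.0707 in edgeR; DESeq2 called 6 members), with 1.35% of all genes called higher. All 14 core genes had both UAS-otk-1 libraries above both WT libraries, against 26.5% of all genes, with a core median of 0.62. The small number of calls depended on WT replicate 2 and hardly on WT replicate 1. With WT replicate 2 left out, more members were called for UAS-otk-1, otk-2 RNAi and UAS-otk-1 UAS-wnt-4, but not for UAS-wnt-4. The share of all genes called in that fit was not set beside them, so this is no result about the members.

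The WT libraries differed in these genes and in the stage score given below. Of the 14 core genes 13 were higher in WT replicate 2 than in replicate 1 (median ratio 1.41), as were all 18 regulatory genes (median ratio 1.18), while the median over all genes was 0.99. A stage score, the mean log2 CPM of late embryo markers minus that of egg and early embryo markers, was 1.05 and -0.28 in the WT libraries. The late markers are genes of cuticle, muscle and nerve cells. The score cannot tell younger embryos from embryos of the same age that lack such tissue. The paper describes lost cuticle where otk-1 RNAi and wnt-4 RNAi were combined. It read 0.03 and -1.24 for UAS-wnt-4, -1.73 and -0.94 for UAS-otk-1, -1.08 and -1.41 for UAS-otk-1 UAS-wnt-4 and -1.17 and -0.85 for otk-2 RNAi. It read -1.60 and -1.93 for the label wnt-4 RNAi, -2.29 and -2.24 for otk-1 RNAi, -1.34 and -1.97 for wnt-4 RNAi otk-1 RNAi, -1.90 and -1.37 for wnt-4 RNAi otk-2 RNAi and -2.72 and -2.37 for otk-1 RNAi otk-2 RNAi. All 10 of the last libraries were thus shifted to early transcripts against both WT libraries. So were the libraries of the overexpression groups and of otk-2 RNAi, except UAS-wnt-4 replicate 1 (0.03). UAS-otk-1 replicate 1 (-1.73) scored lower than wnt-4 RNAi otk-1 RNAi replicate 1 (-1.34). Of 38 late markers tested, 25 to 35 were called lower than WT in the groups with a wnt-4 or an otk-1 RNAi label. Of all genes, 29.5% were called lower for the label wnt-4 RNAi, 24.5% for otk-1 RNAi and 31.4% for wnt-4 RNAi otk-1 RNAi. For wnt-4 RNAi otk-2 RNAi and otk-1 RNAi otk-2 RNAi these were 3007 and 2717 of 11154. The late list summed to 3690 to 6130 CPM in these groups against 9340 to 14900 CPM in WT. The 25 early markers summed to 2620 to 3200 CPM against 1510 to 2410 CPM in WT, and to 2700 to 2840 CPM for UAS-otk-1. In the groups with these RNAi labels 9 to 14 of the 25 were called higher than WT, where 21.0% to 30.9% of all genes were. The lowest of these counts, 9, was that of wnt-4 RNAi otk-1 RNAi. There, and for the label wnt-4 RNAi, 2 early markers were called lower.

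**Figure D5:**
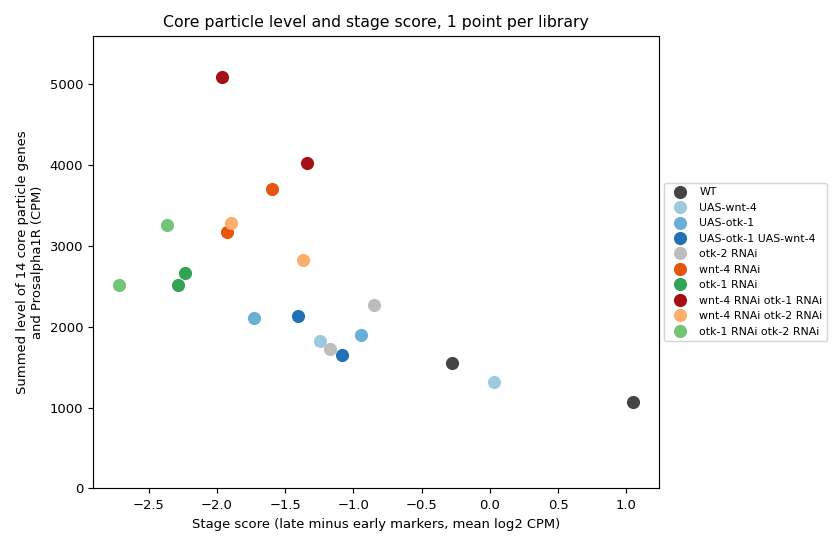
Summed CPM of the 14 core genes and Prosalpha1R (y axis) against the stage score (x axis, late minus early markers in mean log2 CPM), 1 point per library. Lower scores mean lower late markers relative to early markers. The WT libraries are at scores of 1.05 and -0.28, the wnt-4 RNAi otk-1 RNAi libraries have the highest sums at -1.34 and -1.97, while the lowest scores are those of otk-1 RNAi otk-2 RNAi.

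With the stage score in the model as a covariate, no core gene was called against WT for the label wnt-4 RNAi, for otk-1 RNAi, for wnt-4 RNAi otk-2 RNAi or for otk-1 RNAi otk-2 RNAi, with core medians of 0.77, 0.24, 0.66 and 0.43. Calls over all genes fell to 204, 25, 167 and 20. For wnt-4 RNAi otk-1 RNAi 12 core genes were still called higher (median 1.22), among 2821 calls in all. Rpt6R kept log2 fold changes of 2.35 to 3.08 and was called for the label wnt-4 RNAi and for wnt-4 RNAi otk-1 RNAi. The score differs between the groups themselves, so the RNAi and the mix of stages cannot be told apart in the comparisons with WT. Leaving out WT replicate 1 took the members called for otk-1 RNAi from 27 to 4 (2 core genes and 2 copies) and those for otk-1 RNAi otk-2 RNAi from 27 to 15. It left 14 core genes called for each of the other 3 groups. Of the regulatory genes 4 were called lower than WT for wnt-4 RNAi otk-1 RNAi once its replicate 1 was left out.

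Core and regulatory genes were also compared without WT. Between wnt-4 RNAi otk-1 RNAi and otk-1 RNAi, 12 of 14 core genes were called higher (median over the 14 of 0.81), with 19.5% of all genes called higher and 11.7% lower. Prosalpha5 rose most, by 1.08 ± 0.30 (adjusted p = 0.0186, edgeR). Rpt4 rose by 0.64 ± 0.17, Prosalpha1R by 0.56 ± 0.23, and 5 regulatory genes fell: Rpn1 (-0.59 ± 0.22), Rpn5 (-0.46 ± 0.19), Rpn13 (-0.43 ± 0.15), Rpn8 (-0.41 ± 0.14) and Rpn11 (-0.33 ± 0.11), with adjusted p from 0.0443 to 0.0962. With the stage score as covariate 13 core genes were called. The regulatory median was -0.27 here with TMM, and relative to the median of all genes it was -0.33 to -0.34 on the 3 scales. The calls rest on replicate 2 of wnt-4 RNAi otk-1 RNAi, which had the highest core sum and, at 0.825, the lowest TMM factor of all libraries. Without it 2 core genes and no regulatory gene were called, with a core median of 0.65. Without replicate 1 or replicate 2 of otk-1 RNAi the core calls were 3 and 6, and no regulatory gene was called lower.

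The 5 genes that fell in that comparison were not called against WT for wnt-4 RNAi otk-1 RNAi. Rpn1 read 110.0 and 161 (WT), 123 and 173 (UAS-wnt-4), 158 and 175 (UAS-otk-1), 148 and 140.1 (UAS-otk-1 UAS-wnt-4) and 159 and 141 (otk-2 RNAi) CPM. In the other groups it read 127 and 155 (wnt-4 RNAi by label), 173 and 168 (otk-1 RNAi), 139 and 87.3 (wnt-4 RNAi otk-1 RNAi), 157 and 161 (wnt-4 RNAi otk-2 RNAi) and 167 and 178 (otk-1 RNAi otk-2 RNAi). Rpn11, the lid deubiquitinase, read 66.4 and 74 (WT), 77.4 and 82.5 (UAS-wnt-4), 86.0 and 75.8 (UAS-otk-1), 88.4 and 89.3 (UAS-otk-1 UAS-wnt-4) and 81.4 and 84.6 (otk-2 RNAi) CPM. Elsewhere it read 71.5 and 77.7 (wnt-4 RNAi by label), 92.2 and 87.7 (otk-1 RNAi), 76.9 and 66.6 (wnt-4 RNAi otk-1 RNAi), 76.5 and 79.1 (wnt-4 RNAi otk-2 RNAi) and 87.3 and 98.6 (otk-1 RNAi otk-2 RNAi). For both genes the wnt-4 RNAi otk-1 RNAi libraries overlapped with WT, and the otk-1 RNAi libraries were above both WT libraries.

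Rpn13 read 65.5 and 81.3 (WT), 70.6 and 88.8 (UAS-wnt-4), 83.2 and 85.8 (UAS-otk-1), 82.6 and 77.2 (UAS-otk-1 UAS-wnt-4) and 80.5 and 75.6 (otk-2 RNAi) CPM. In the RNAi groups it read 69.1 and 82.6 (wnt-4 RNAi by label), 91.9 and 99.0 (otk-1 RNAi), 80.0 and 61.7 (wnt-4 RNAi otk-1 RNAi), 76.3 and 75.7 (wnt-4 RNAi otk-2 RNAi) and 83.7 and 90.6 (otk-1 RNAi otk-2 RNAi). The otk-1 RNAi libraries were the highest of the 20. Rpn8, the partner of Rpn11 in the lid, read 87.0 and 96.6 (WT), 81.7 and 96.1 (UAS-wnt-4), 97.6 and 96.8 (UAS-otk-1), 98.5 and 91.7 (UAS-otk-1 UAS-wnt-4) and 93.8 and 84.3 (otk-2 RNAi) CPM. In the remaining 5 groups it read 78.4 and 92.4 (wnt-4 RNAi by label), 104 and 103 (otk-1 RNAi), 89.6 and 65.5 (wnt-4 RNAi otk-1 RNAi), 91.3 and 92.5 (wnt-4 RNAi otk-2 RNAi) and 98.2 and 102 (otk-1 RNAi otk-2 RNAi). Here too the otk-1 RNAi libraries were the highest. Rpn5, which had the largest p of the lid across the groups (adjusted p = 0.393, edgeR), read 91.9 and 119 (WT), 95.5 and 136 (UAS-wnt-4), 135 and 141 (UAS-otk-1), 128 and 112 (UAS-otk-1 UAS-wnt-4) and 129 and 124 (otk-2 RNAi) CPM. Otherwise it read 111 and 138 (wnt-4 RNAi by label), 132 and 148 (otk-1 RNAi), 116 and 87.0 (wnt-4 RNAi otk-1 RNAi), 136 and 116 (wnt-4 RNAi otk-2 RNAi) and 120.0 and 141 (otk-1 RNAi otk-2 RNAi). For Rpn1, Rpn5, Rpn8 and Rpn13 the lowest of the 20 values was replicate 2 of wnt-4 RNAi otk-1 RNAi, the library named above.

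Other pairs gave fewer calls. Between wnt-4 RNAi otk-2 RNAi and otk-2 RNAi, 7 of 14 core genes rose, Prosbeta7 by 0.87 ± 0.18 and Prosbeta3 by 0.86 ± 0.25, as did Rpt4 and Rpt6R, with 14.1% of all genes called higher. Without otk-2 RNAi replicate 1 none of these was called, and without wnt-4 RNAi otk-2 RNAi replicate 1 there were 2 calls. Between otk-1 RNAi otk-2 RNAi and otk-2 RNAi, Prosalpha7 (0.83 ± 0.23) and Rpt6R (2.29 ± 0.41) rose, with 3.59% of all genes called higher. Between the label wnt-4 RNAi and otk-1 RNAi no member was called (6 had an unadjusted p under 0.05 in edgeR, and DESeq2 called 1), where 9.64% of all genes were. With only the groups compared in the fit, 14 members were called, without a share of all genes in that fit to set beside them. Of the core genes, 13 of 14 had both wnt-4 RNAi labelled libraries above both of otk-1 RNAi, as did 33.0% of all genes. A test of whether the step to a wnt-4 RNAi label differed with and without otk-1 RNAi called 4 members lower (Rpt5, Rpn11, Rpt3R and Rpt6R; 7.93% of all genes), and the like test with otk-2 RNAi called none (0.0807% of all genes). Across the 10 groups 21 members were called (13 core, 5 regulatory, 3 copies), beside 64.1% of all genes.

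Genes around the proteasome were followed as lists, here for wnt-4 RNAi otk-1 RNAi against WT, where 30.9% of all genes were called higher and 31.4% lower. Of 13 assembly factors, partners and regulators 7 rose and 1 fell. Uch-L5, a deubiquitinase that binds Rpn13, rose by 1.79 ± 0.19, the F-box gene ntc by 1.78 ± 0.30, Pomp, the maturation factor of the core particle, by 1.64 ± 0.21, and Pngl, a peptide N-glycanase, by 1.04 ± 0.17. The gene that fell was cnc (-0.46 ± 0.12, adjusted p = 0.00642, edgeR), the fly relative of the mammalian factors that drive proteasome and stress genes. Its mean was 82.1 CPM there and 113 CPM in WT, and it was not called for otk-1 RNAi (0.01 ± 0.12) or the label wnt-4 RNAi (-0.02 ± 0.12). In each of these groups 6 of the 13 rose and none fell. Of all genes, 21.0% were called higher and 24.5% lower for otk-1 RNAi, and 29.7% and 29.5% for the label wnt-4 RNAi.

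Of 14 genes for ubiquitin and its conjugation 10 rose and 1 fell. The conjugating enzymes Ubc10 (1.83 ± 0.19), Ubc4 (1.76 ± 0.21), Ubc2 (1.502 ± 0.18) and ben (1.44 ± 0.17) were among those that rose, and the polyubiquitin gene Ubi-p63E fell (-0.58 ± 0.17). The p97 and shuttle list held 8 tested genes, without TER94, the gene of p97 itself, which was not matched. Of these 8 genes 3 rose, Faf2 (1.14 ± 0.17), Rad23 (0.96 ± 0.14) and Ubqn (0.38 ± 0.14), and casp fell (-0.43 ± 0.14), a share of risers near that of all genes. Ubqn turned below WT in TPM, and so did REG of the assembly list and RpL40 of the ubiquitin list, the last also in CPM without TMM. All 8 subunits of the COP9 signalosome, a complex related in structure to the lid, rose with a median of 1.19, CSN3 by 1.77 ± 0.21, alien by 1.45 ± 0.17, CSN4 by 1.40 ± 0.16 and CSN5 by 1.20 ± 0.15. The median of the 8 lid genes was 0.00. The COP9 genes also rose for the label wnt-4 RNAi (8 of 8, median 0.97, with 29.7% of all genes called higher). For otk-1 RNAi 7 of 8 rose (median 0.47, with 21.0% of all genes called higher).

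Of 8 subunits of the cytosolic chaperonin, another large ring complex, none rose and 5 fell, CCT6 (-0.68 ± 0.16), CCT8 (-0.50 ± 0.14), CCT5 (-0.47 ± 0.12) and CCT4 (-0.40 ± 0.12) by the largest amounts. Of 82 cytosolic ribosomal protein genes 60 rose and 1 fell, with a median of 0.40. In TPM their median was -0.07 and 30 of the 60 lay below WT, as did 9 in CPM without TMM, while relative to the median of all genes the list stayed at 0.45 to 0.48 on the 3 scales. RpL37-2 (2.39 ± 0.37), RpS10a (1.62 ± 0.30), RpS5b (1.23 ± 0.23) and RpS10b (0.92 ± 0.16) rose most, and RpS5a, the paralog of RpS5b, fell (-0.39 ± 0.10). With otk-1 RNAi 2 ribosomal genes rose and 1 fell, with a median of 0.01, where 21.0% of all genes were called higher. For the label wnt-4 RNAi 15 rose and 1 fell, where 29.7% of all genes were called higher. Both counts of risers were below the share of all genes.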

How the data were processed

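RNA of whole embryos was sequenced as paired reads of 151 bases. The authors aligned reads with STAR 2.7.1a to dm6 and estimated counts with RSEM 1.3.1. The deposited expected counts (11.6% not whole, since RSEM divides reads that fit several genes) were rounded to whole numbers, and the TPM of the authors were used as deposited. Effective lengths came from the same files. The sources used here do not say whether strand was used in counting, and 7 of 14 core and 9 of 18 regulatory genes overlap another gene.

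Mitochondrial, rRNA, snoRNA and snRNA genes were removed (426 genes, 5.98 to 10.9% of counts). The filter was a mean of 10 counts, and the test was run in edgeR 4.0.16 (TMM, quasi-likelihood, R 4.3.3) with all 20 libraries in 1 fit (10 residual degrees of freedom, common dispersion 0.0336), at an adjusted p under 0.1. The script was tested on simulated data. Names and coordinates of 17587 genes came from an Ensembl annotation of the same assembly. Members and lists were chosen with earlier results of these data known. Levels in every library are given for the members of smallest and largest p in each subcomplex and for members called against the majority in a comparison. Of the other lists, log2 fold changes are given for up to 4 genes with the largest change past the threshold and any that changed the other way. Rpt6 had divided reads in 8 libraries. Ecm29 and TER94, the gene of p97, were not matched. Alternatives were DESeq2 1.42.0, RLE scaling, no filter, a threshold of 0.05, a replicate block, a stage covariate, removal of the length trend, a fit restricted to the compared groups, and each library left out.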

Additional observations from a re-analysis of the deposited data

Results flagged for a closer look

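An interaction test in the edgeR fit asked whether the step to a label with wnt-4 RNAi differed with and without otk-1 RNAi. Of 36 members 4 passed, and of all genes 7.93% were called in this direction. The count is near that share and is no result about the members as a set. For Rpt6R the difference was -2.88 on the log2 scale (± 0.55 (SE), adjusted p = 0.0204): the libraries labelled wnt-4 RNAi were 2.81 above WT, and those labelled wnt-4 RNAi otk-1 RNAi were -0.06 from otk-1 RNAi. For Rpt3R it was -1.37 ± 0.48 (adjusted p = 0.0825), with 1.37 without and 0.00 with otk-1 RNAi. For Rpt5 it was -0.42 ± 0.16 (adjusted p = 0.0944), with 0.17 and -0.25, and for Rpn11 it was -0.41 ± 0.15 (adjusted p = 0.0962), with 0.09 and -0.33. No core gene passed this test, but all 36 members were below 0 (median -0.52), with a median of 0.02 over all genes. All members were read from the same libraries, among them WT replicate 1, which was below WT replicate 2 in most members. Their common sign is therefore not separate support from each member. The core genes ran from -2.01 to -0.36 (median -0.56), and 15 members had an unadjusted p under 0.05 in edgeR. No member passed the like test with otk-2 RNAi, where 0.0807% of all genes were called. There the core median was -0.79, 13 members had an unadjusted p under 0.05 in edgeR, and DESeq2 called 0. With 2 libraries per group no library could be tested as an outlier.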

How the results depend on the processing

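Counts of members called kept within 1.5 times under most alternatives. For most alternatives, and with a library left out, the share of all genes called is not given. The counts below therefore describe the fits and are no result about the members. With the stage score as a covariate they became, against WT, 1 for the label wnt-4 RNAi and 0 each for otk-1 RNAi, wnt-4 RNAi otk-2 RNAi, otk-1 RNAi otk-2 RNAi and UAS-otk-1 UAS-wnt-4, 0 for otk-1 RNAi otk-2 RNAi against otk-2 RNAi, 8 in wnt-4 RNAi against otk-1 RNAi and 0 in the interaction with otk-1 RNAi. With only the groups compared in the fit they became against WT 16 for otk-1 RNAi otk-2 RNAi and 0 for UAS-otk-1 UAS-wnt-4, 14 in wnt-4 RNAi against otk-1 RNAi, 1 for otk-1 RNAi otk-2 RNAi against otk-2 RNAi and 7 in otk-1 RNAi against UAS-otk-1. DESeq2 called 8 in UAS-otk-1, 6 in UAS-otk-1 UAS-wnt-4 and 3 in otk-2 RNAi against WT, 1 in wnt-4 RNAi against otk-1 RNAi and 9 in the interaction with otk-1 RNAi. Without the filter there were 4 in UAS-otk-1 and 2 in UAS-otk-1 UAS-wnt-4 against WT and 2 in that interaction. At 0.05 there were 0 in UAS-otk-1 UAS-wnt-4 against WT, 1 for otk-1 RNAi otk-2 RNAi against otk-2 RNAi and 1 in the interaction, and with the length trend removed 8 in the interaction.

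The main fit did not pair libraries by replicate number. Same-numbered deviations correlated between -0.227 and 0.63 over 45 pairs of groups (median 0.0583), above 0.1 in 17. With 2 libraries a group, this check cannot settle whether same-numbered libraries were paired. A replicate block gave 7 members in UAS-otk-1 against WT, 3 in wnt-4 RNAi against otk-1 RNAi, 4 for otk-1 RNAi otk-2 RNAi against otk-2 RNAi and 7 in the interaction.

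Leaving out 1 library at a time, with a lone library assumed to vary like the other groups, gave against WT 0 to 0 members in UAS-wnt-4, 0 to 24 in UAS-otk-1, 0 to 17 in UAS-otk-1 UAS-wnt-4, 0 to 19 in otk-2 RNAi, 20 to 22 for the label wnt-4 RNAi, 4 to 29 for otk-1 RNAi, 20 to 24 for wnt-4 RNAi otk-1 RNAi, 18 to 23 for wnt-4 RNAi otk-2 RNAi and 15 to 32 for otk-1 RNAi otk-2 RNAi. It gave 0 to 0 in wnt-4 RNAi against otk-1 RNAi, 2 to 24 in wnt-4 RNAi otk-1 RNAi against otk-1 RNAi, against otk-2 RNAi 0 to 8 for wnt-4 RNAi otk-2 RNAi and 1 to 2 for otk-1 RNAi otk-2 RNAi, 1 to 2 in otk-1 RNAi against UAS-otk-1 and 19 to 22 across the groups.

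Among the refits of the named genes, the sign turned with the stage covariate: Prosbeta2 to -0.092 for otk-1 RNAi and -0.099 for otk-1 RNAi otk-2 RNAi, Prosbeta7 to -0.11 in the latter, and Rpt4 to -0.22 and -0.31, none past the threshold. In TPM the core median was 1.16 for the label wnt-4 RNAi and 1.32 for wnt-4 RNAi otk-1 RNAi against WT, and 0.42 for the latter against otk-1 RNAi. Of 396 member values over 11 comparisons, 52 had another sign in TPM or in CPM without TMM than with TMM (scales added after the values were seen), none of them called (Prosalpha2 in wnt-4 RNAi otk-1 RNAi against otk-1 RNAi went from 0.34 to -0.03 in TPM). The cause of these shifts was not tested.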
